A study of Homo sapiens with 54 samples.

Results

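WNT5A, SOX9, AXIN2 and TCF7L2 are 4 of the 19225 genes and other transcripts in the deposited table of the study, and were taken from it by name. The set was chosen by measured values: WNT5A and SOX9 stood higher after enzalutamide than after vehicle in earlier work on the same data, and AXIN2 and TCF7L2 were set beside them as measures of WNT signalling; the comparison of enzalutamide alone with vehicle is therefore described here without a test. Tests are given for the other treatment groups, whose libraries did not enter that choice, or share vehicle or Enza libraries with it: all tests against vehicle or Enza and those of the vehicle level between lines do. Each of the 4 genes reached at least 1 count per 1000000 reads (CPM) in all 54 libraries, so none was lost to the filter on low values.

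WNT ligands are secreted proteins that bind Frizzled receptors and their co-receptors. In the canonical branch, binding stops the destruction complex around AXIN and APC from degrading beta-catenin, which then acts with TCF/LEF factors on target genes, while other ligands, WNT5A among them, are best known for signalling through ROR and Frizzled receptors without beta-catenin. AXIN2 is a scaffold of the destruction complex and a widely used canonical target gene, TCF7L2 (TCF4) is one of the DNA-binding TCF/LEF factors, and SOX9 is a transcription factor of prostate development that can be both a target and a regulator of WNT signalling. Enzalutamide is an antiandrogen used to treat prostate cancer.

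Total RNA was sequenced from 3 human prostate cancer cell lines, each treated for 12 h in serum-containing medium with OSU-ERb-12 (OSU, 100 nM) plus enzalutamide (Enza, 1 µM), OSU alone (100 nM), 17-beta-estradiol (E2, 100 nM) plus Enza (1 µM), E2 alone (100 nM), Enza alone (1 µM) or ethanol vehicle. OSU is named in the labels only by its code, and the series concerns estrogen receptor beta; titles mark the OSU groups with the letters WT, and their assignment here rests on the treatment labels. 22Rv1 derives from a relapsed human xenograft, C4-2 is an LNCaP derivative that grows in castrated hosts, and LNCaP comes from a lymph node metastasis. There were 3 libraries per group in 18 groups, which the labels call biological triplicates without saying whether they came from separate cultures, so p-values measure the spread between these libraries. As whole cell populations were lysed, fewer expressing cells and less RNA per cell cannot be told apart. A level in CPM carries the SD over its 3 libraries after ±, and a log2 fold change its standard error (SE); fold changes are on the log2(CPM + 0.5) scale; a gene is called where limma's Benjamini-Hochberg adjusted p is under 0.05.

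Depth was 32819568 to 52417050 reads per library, and the 4 genes had 146 to 3776 reads in each library. One C4-2 vehicle library carries a cell line tag of 22Rv1 against its title; its log2 profile correlated at 0.998 with C4-2 and at 0.810 with 22Rv1, against 0.800 to 0.805 with 22Rv1 for the other C4-2 libraries, and it was kept as C4-2. It and 3 more libraries (C4-2 E2 replicate 3, 22Rv1 vehicle replicate 3 and 22Rv1 OSU+Enza replicate 2) stood apart in earlier work. Summed luminal markers (8 of 8 genes measured, among them KLK3, HOXB13 and KRT18) were 1019.5 to 1256 CPM in 22Rv1, 3495 to 5162 CPM in C4-2 and 2878 to 4315 CPM in LNCaP, whereas the 6 fibroblast or mesenchyme markers measured of 8 summed to at most 24.1 CPM, the 3 basal markers measured of 6 to at most 4.82 CPM and the 3 leukocyte markers measured of 6 to at most 10.5 CPM in any library. The 4 neuroendocrine markers measured of 6 summed to 161 to 171 CPM in 22Rv1, 8.76 to 11.4 CPM in C4-2 and 10.2 to 16.3 CPM in LNCaP. KLK2, a prostate kallikrein, fell when Enza was added to OSU by a log2 value of -0.72 ± 0.06 in 22Rv1, -1.06 ± 0.04 in C4-2 and -1.92 ± 0.04 in LNCaP (adjusted p = 1.01e-08, 4.13e-15 and 3.11e-23, limma). TMPRSS2, also taken as a check of drug action, changed by -1.44 ± 0.05 in C4-2 and -1.55 ± 0.03 in LNCaP (adjusted p = 6.23e-18 and 1.84e-23, limma). In 22Rv1, TMPRSS2 was not called in that comparison (-0.16 ± 0.08, adjusted p = 0.388, limma).

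WNT5A lies on chromosome 3 (55465715 to 55505263, minus strand, GRCh38.p14), SOX9 and AXIN2 on chromosome 17 (72121020 to 72126416 and 65528563 to 65561648), and TCF7L2 on chromosome 10 (112950247 to 113167678). WNT5A-AS1 overlaps WNT5A in that annotation and was not analysed here; the library kit marks strand, and the strand setting of the counting is not given in the sources used here. RefSeq's promoter table holds 2 start sites for WNT5A and 3 for TCF7L2, and no entry for SOX9 or AXIN2. Counts per gene do not tell these starts apart. The stretches upstream of both WNT5A starts are printed because WNT5A had the largest response of the set to Enza beside OSU in C4-2 and LNCaP, and that of the first TCF7L2 start because it is a gene that changed little. They run 5′ to 3′ up to the first annotated exon base, in lower case, with any match to the motifs below in capitals. They lie at chr3:55487399-55487556 (minus strand), chr3:55481399-55481648 (minus strand) and chr10:112949997-112950246 (plus strand).
WNT5A upstream of the first start: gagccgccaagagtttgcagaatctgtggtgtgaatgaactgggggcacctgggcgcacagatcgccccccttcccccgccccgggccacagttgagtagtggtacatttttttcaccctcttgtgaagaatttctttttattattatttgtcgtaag
WNT5A upstream of the second start: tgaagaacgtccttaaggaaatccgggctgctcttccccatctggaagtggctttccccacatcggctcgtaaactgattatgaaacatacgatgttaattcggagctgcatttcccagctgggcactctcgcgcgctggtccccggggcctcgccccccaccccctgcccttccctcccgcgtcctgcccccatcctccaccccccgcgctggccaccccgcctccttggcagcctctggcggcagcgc
TCF7L2 upstream of the first start: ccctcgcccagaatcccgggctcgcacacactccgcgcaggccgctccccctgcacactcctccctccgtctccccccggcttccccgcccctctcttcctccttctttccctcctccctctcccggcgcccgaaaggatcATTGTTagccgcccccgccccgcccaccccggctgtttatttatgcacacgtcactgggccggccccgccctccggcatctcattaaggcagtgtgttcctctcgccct

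The 250 bases before each start were searched on both strands for AGAACA, a steroid receptor half-site, for the full palindromic steroid response element, which contains it and its inverted copy spaced by NNN, for the TCF/LEF sites CTTTGAT and CTTTGAA, and for the SOX site ATTGTT. Neither WNT5A window held any of them, the TCF7L2 window printed held the SOX site once, the window of the second TCF7L2 start held the half-site once, and that of the third start held none. Of 35116 promoter windows of this length, 12.4% held AGAACA, 0.00285% the full element, 2.26% CTTTGAT, 3.80% CTTTGAA and 8.98% ATTGTT.

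The lines differed in the level of SOX9 more than treatments moved it within a line (at most 2.14-fold between group means, in C4-2). WNT5A also differed between lines, and its group means spanned 4.43-fold over treatments within C4-2. SOX9 was highest in 22Rv1, with 45.6 to 48.6 CPM in vehicle libraries, intermediate in C4-2 with 17.997 to 19.7 CPM and lowest in LNCaP with 4.51 to 4.86 CPM, and the 3 ranges do not overlap. WNT5A stood in the opposite order, with 4.51 to 4.90 CPM in 22Rv1, 7.76 to 9.09 CPM in C4-2 and 14.8 to 16.1 CPM in LNCaP vehicle libraries. In a fit of all 54 libraries, the vehicle level of SOX9 differed by 3.22 ± 0.08 (log2) between 22Rv1 and LNCaP, 1.29 ± 0.08 between 22Rv1 and C4-2 and 1.93 ± 0.08 between C4-2 and LNCaP (adjusted p = 1.14e-35, 2.73e-19 and 2.05e-25, limma). That of WNT5A differed by -1.62 ± 0.10, -0.80 ± 0.10 and -0.82 ± 0.10 in the same pairs (adjusted p = 1.99e-20, 3.25e-10 and 5.42e-10). Of all genes tested, 83.3%, 84.7% and 66.7% were called in these pairs. SOX9-AS1, the antisense neighbour of SOX9, had 1.00 to 2.18 CPM in 22Rv1 libraries and at most 0.0497 CPM in C4-2 and 0.0966 CPM in LNCaP.

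AXIN2 and TCF7L2 were level across lines by comparison. AXIN2 had 6.76 to 7.79 CPM in 22Rv1, 9.57 to 10.4 CPM in C4-2 and 8.75 to 8.94 CPM in LNCaP vehicle libraries, a log2 difference of -0.46 ± 0.10 between 22Rv1 and C4-2 (adjusted p = 2.81e-05). TCF7L2 had 15.9 to 18.7 CPM in 22Rv1, 14.1 to 14.7 CPM in C4-2 and 14.04 to 16.9 CPM in LNCaP vehicle libraries, and 22Rv1 was 0.25 ± 0.07 above C4-2 (adjusted p = 0.00187). When libraries were scaled by their total reads, the all-gene median of the 22Rv1 and C4-2 pair shifted by 0.218 (log2), and the AXIN2 and TCF7L2 differences came to -0.22 and 0.49, both still called.

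**Figure D1:**
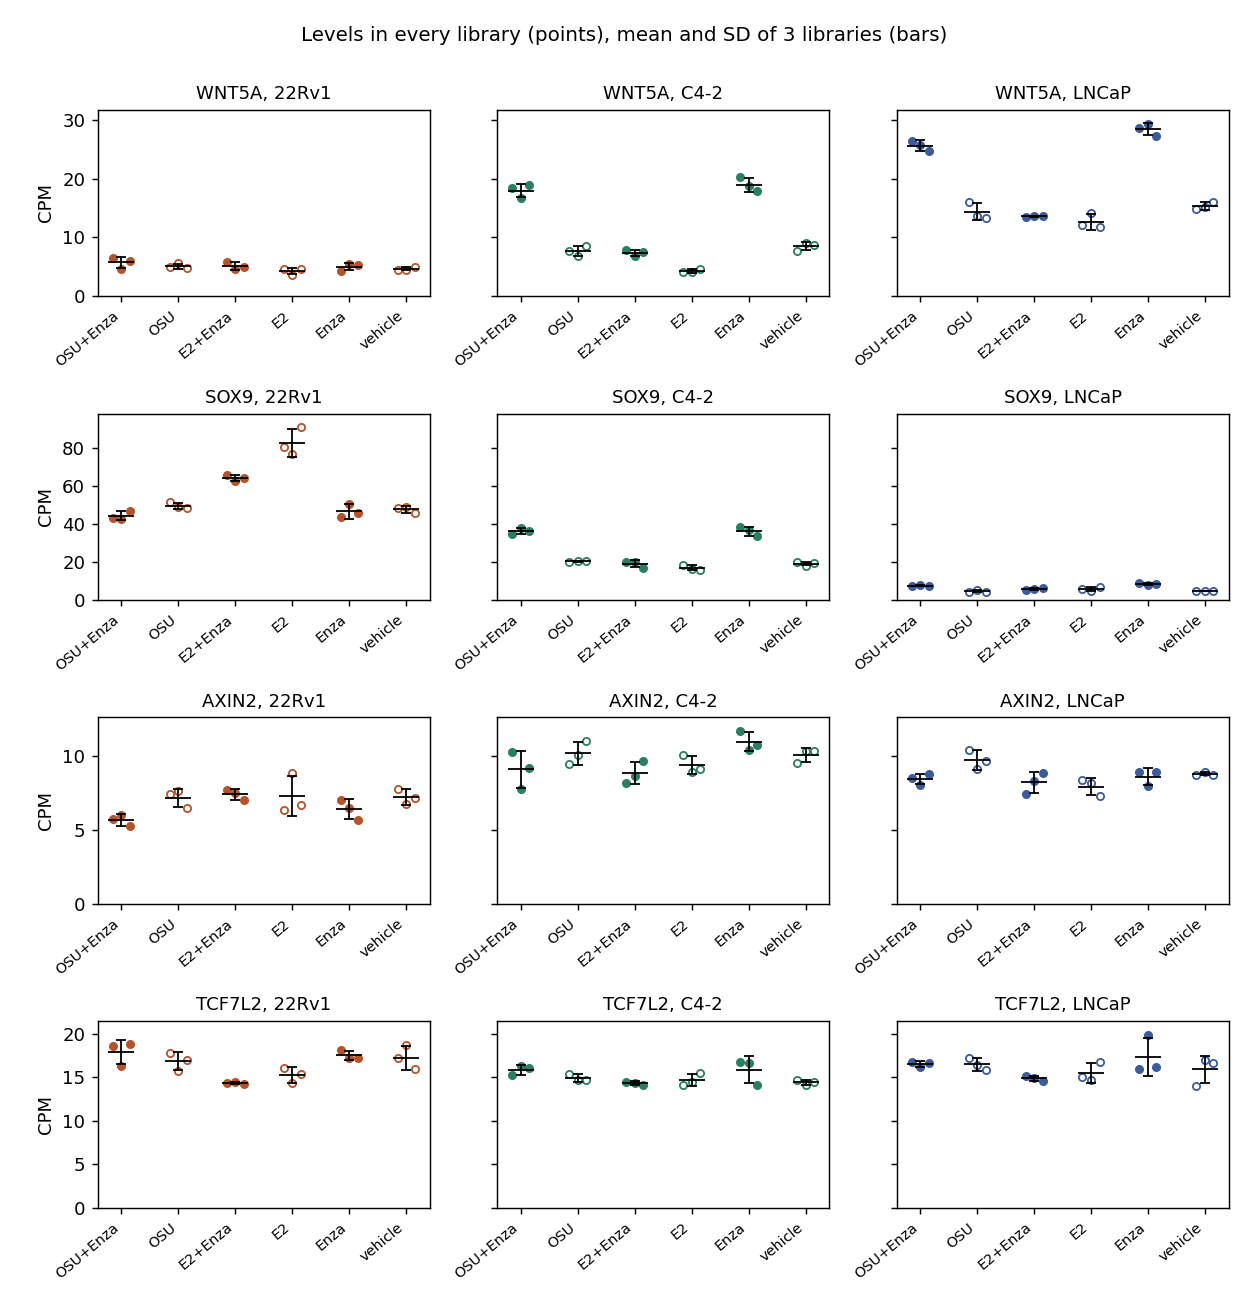
Level of each gene (rows) in each line (columns), in CPM on axes that start at 0 and are shared within a row; points are libraries (filled where Enza was given), and bars are the mean and SD of 3 libraries. WNT5A and SOX9 stand higher with OSU+Enza and with Enza in C4-2 and LNCaP, SOX9 is highest with E2 in 22Rv1, and AXIN2 and TCF7L2 stay within 5.27 to 11.7 and 14.04 to 19.8 CPM.

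Over the 18 groups, WNT5A means spanned 4.25 to 28.4 CPM. The order began with LNCaP Enza (28.4 ± 1.012 CPM), LNCaP OSU+Enza (25.7 ± 0.911 CPM), C4-2 Enza (19.0 ± 1.25 CPM) and C4-2 OSU+Enza (17.99 ± 1.18 CPM), and ended with the 6 22Rv1 groups and C4-2 E2 (4.28 ± 0.330 CPM). Of the 17 steps between neighbours in this order, 5 had no overlap between libraries: LNCaP Enza over LNCaP OSU+Enza, LNCaP OSU+Enza over C4-2 Enza, C4-2 OSU+Enza over LNCaP vehicle, LNCaP E2 over C4-2 vehicle and C4-2 E2+Enza over 22Rv1 OSU+Enza. SOX9 means spanned 4.44 to 82.5 CPM, led by 22Rv1 E2 (82.5 ± 7.22 CPM) and 22Rv1 E2+Enza (63.9 ± 1.602 CPM), and 8 of 17 steps had no overlap. For AXIN2 (5.68 to 10.98 CPM) and TCF7L2 (14.3 to 17.9 CPM) the libraries of every pair of neighbours overlapped, in 17 of 17 steps each.

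Enza added to OSU raised WNT5A and SOX9 in C4-2 and LNCaP, and changed neither AXIN2 nor TCF7L2 past the threshold in any line. WNT5A in C4-2 had 18.4, 16.7 and 18.9 CPM with OSU+Enza, against 7.76, 6.83 and 8.56 CPM with OSU. All 3 combined libraries lay above all 3 OSU libraries. The log2 fold change was 1.17 ± 0.09, or 2.26-fold (95% interval 0.99 to 1.36 on the log2 scale, adjusted p = 7.55e-10, limma), which ranked 1 of 14027 tested genes by signed fold change. WNT5A in LNCaP had 26.5, 25.8 and 24.7 CPM with OSU+Enza, against 16.1, 13.7 and 13.4 CPM with OSU, again without overlap (0.82 ± 0.07, 1.76-fold, adjusted p = 8.46e-10, rank 39 of 14251). In 22Rv1, WNT5A had 6.48, 4.69 and 6.01 CPM with OSU+Enza, against 4.89, 5.57 and 4.77 CPM with OSU, and the groups overlapped (0.15 ± 0.12, 95% interval -0.10 to 0.40, adjusted p = 0.646).

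SOX9, the transcription factor, moved with WNT5A in this comparison. It had 34.6, 37.7 and 36.3 CPM in C4-2 with OSU+Enza, against 20.2, 20.2 and 20.3 CPM with OSU. Its groups did not overlap, and the change was 0.82 ± 0.07 (1.77-fold, adjusted p = 4.07e-09, rank 7 of 14027). In LNCaP it had 7.28, 7.92 and 7.195 CPM with OSU+Enza, against 3.99, 5.01 and 4.34 CPM with OSU (0.69 ± 0.11, 1.62-fold, adjusted p = 2.96e-05, rank 69 of 14251). All combined libraries were above all OSU libraries there too. In 22Rv1, SOX9 had 43.2, 42.5 and 46.9 CPM with OSU+Enza, against 51.3, 48.9 and 48.2 CPM with OSU. The combined libraries were all lower, and the difference of -0.16 ± 0.06 was not called (adjusted p = 0.240, limma).

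The canonical target AXIN2 and the pathway factor TCF7L2 stayed under the threshold when Enza was added to OSU, with estimates for AXIN2 below 0 in each line. AXIN2 had 5.72, 6.04 and 5.27 CPM in 22Rv1 with OSU+Enza, against 7.42, 7.67 and 6.49 CPM with OSU (-0.32 ± 0.11, 95% interval -0.54 to -0.09, adjusted p = 0.201), with no overlap. In C4-2 it had 10.3, 7.81 and 9.23 CPM with OSU+Enza, against 9.49, 10.1 and 11.03 CPM with OSU, which overlapped (-0.16 ± 0.09, 95% interval -0.35 to 0.03, adjusted p = 0.336). In LNCaP it had 8.51, 8.08 and 8.77 CPM with OSU+Enza, against 10.45, 9.16 and 9.66 CPM with OSU, without overlap (-0.20 ± 0.08, 95% interval -0.37 to -0.02, adjusted p = 0.0760). The upper ends of these intervals leave room for a rise of at most 0.03. TCF7L2, the DNA-binding factor, differed by 0.08 ± 0.07 in 22Rv1, 0.09 ± 0.07 in C4-2 and 0.01 ± 0.08 in LNCaP, with overlapping groups and 95% intervals that end at 0.23 or below. Of the 4 genes, 0 were called in 22Rv1, where 2 had an unadjusted p under 0.05, and 2 each were called in C4-2 and LNCaP. Of all genes tested, 0.942%, 7.32% and 30.8% were called in these lines.

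Enza added to E2 gave a smaller WNT5A response in LNCaP than Enza added to OSU did. WNT5A in LNCaP had 13.6, 13.7 and 13.7 CPM with E2+Enza, against 12.0, 14.1 and 11.7 CPM with E2. The groups overlapped, and the difference was 0.11 ± 0.07 (95% interval -0.03 to 0.26, adjusted p = 0.350). In C4-2 WNT5A had 7.78, 6.83 and 7.51 CPM with E2+Enza, against 4.06, 4.12 and 4.66 CPM with E2. All combined libraries lay above the E2 libraries (0.72 ± 0.09, 1.65-fold, adjusted p = 7.43e-06, rank 5 of 14027; 0.78 without the libraries that stood apart). In 22Rv1 it had 5.88, 4.53 and 4.92 CPM with E2+Enza, against 4.53, 3.67 and 4.56 CPM with E2, with overlap (0.24 ± 0.12, adjusted p = 0.641).

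SOX9 did not pass the threshold when Enza was added to E2 in C4-2 or LNCaP, and fell in 22Rv1. In C4-2 it had 20.03, 19.9 and 16.9 CPM with E2+Enza, against 18.5, 16.4 and 15.8 CPM with E2 (0.16 ± 0.07, 95% interval 0.02 to 0.30, adjusted p = 0.277). In LNCaP it had 5.32, 5.48 and 6.43 CPM with E2+Enza, against 5.68, 4.72 and 6.96 CPM with E2 (0.00 ± 0.11, 95% interval -0.23 to 0.23, adjusted p = 0.999). Both pairs of groups overlapped. In 22Rv1 it had 65.5, 62.3 and 63.9 CPM with E2+Enza, against 80.2, 76.7 and 90.6 CPM with E2, all lower, a change of -0.36 ± 0.06 (0.778-fold, adjusted p = 0.000458). AXIN2 (0.03 ± 0.11, -0.08 ± 0.09 and 0.05 ± 0.08 in 22Rv1, C4-2 and LNCaP) and TCF7L2 (-0.08 ± 0.07, -0.03 ± 0.07 and -0.06 ± 0.08) overlapped between groups in each line. Of the 4 genes, 1 was called in 22Rv1, 1 in C4-2 and none in LNCaP, where limma gave no unadjusted p under 0.05 either, against 1.2%, 3.46% and 13.5% of all genes tested.

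The difference between both Enza effects was tested within each line. For WNT5A the effect with E2 minus that with OSU was -0.70 ± 0.10 in LNCaP (adjusted p = 1.48e-05), -0.45 ± 0.13 in C4-2 (adjusted p = 0.117, 95% interval -0.72 to -0.19) and 0.09 ± 0.17 in 22Rv1 (adjusted p = 0.926). For SOX9 it was -0.69 ± 0.16 in LNCaP (adjusted p = 0.00333), -0.66 ± 0.10 in C4-2 (adjusted p = 0.000243) and -0.20 ± 0.08 in 22Rv1 (adjusted p = 0.4999). Neither AXIN2 nor TCF7L2 was called in any line. Of all genes, 14.5% in LNCaP, 0.82% in C4-2 and 0.121% in 22Rv1 were called. So in LNCaP 2 of 4 genes, in C4-2 1 of 4 and in 22Rv1 0 of 4 had a smaller Enza effect beside E2. In 22Rv1, SOX9 and AXIN2 had an unadjusted limma p under 0.05, in opposite directions. There the SOX9 estimate was lower beside E2 than beside OSU, and the AXIN2 estimate was higher (by 0.32 to 0.39 over the main fit and its alternatives).

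**Figure D2:**
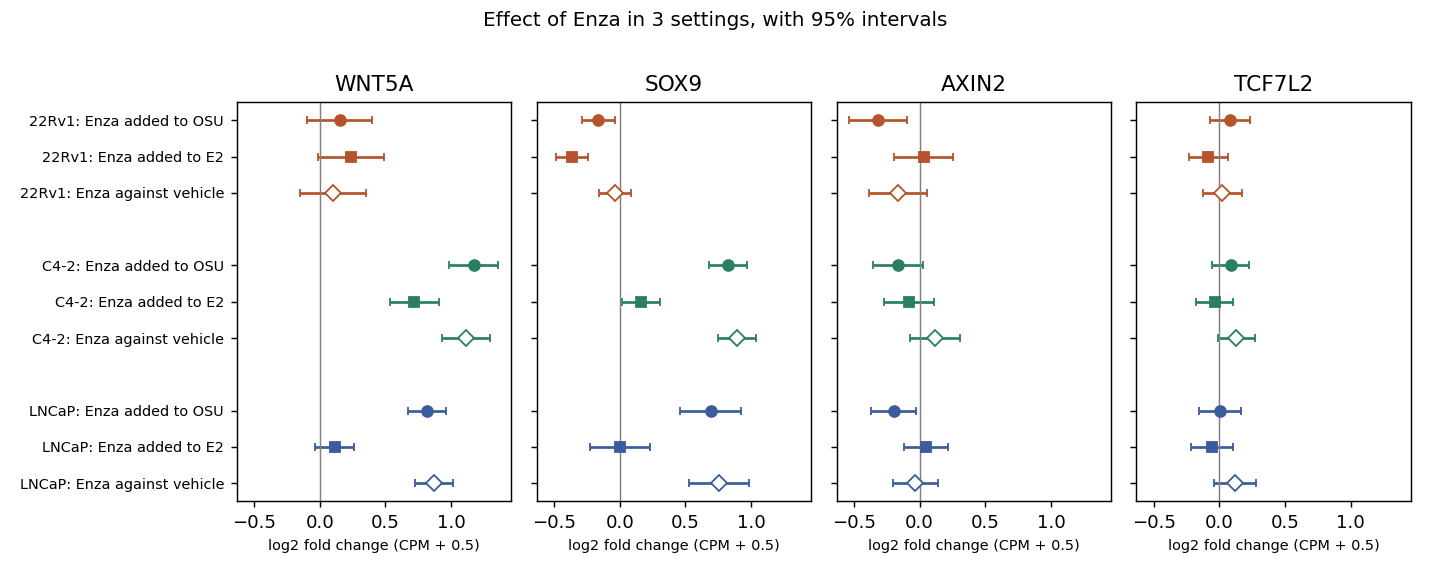
Log2 fold change and 95% interval of each gene when Enza was added to OSU (circles), added to E2 (squares) or given alone against vehicle (open diamonds, the comparison that chose the genes), by line. WNT5A and SOX9 lie right of 0 beside OSU in C4-2 and LNCaP, WNT5A reaches 0.72 beside E2 in C4-2, and SOX9 lies at -0.36 beside E2 in 22Rv1.

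The comparison that chose the genes gave these values. WNT5A had 20.3, 18.7 and 17.9 CPM with Enza alone in C4-2, against 7.76, 9.09 and 8.63 CPM with vehicle (log2 fold change 1.11), and 28.7, 29.3 and 27.3 CPM in LNCaP with Enza, against 14.8, 15.2 and 16.1 CPM with vehicle (0.87). In 22Rv1 it had 4.34, 5.51 and 5.24 CPM with Enza, against 4.52, 4.51 and 4.90 CPM with vehicle (0.10). SOX9 had 38.1, 36.5 and 33.4 CPM with Enza in C4-2, against 19.7, 17.997 and 19.6 CPM with vehicle (0.90), and 8.83, 7.70 and 8.10 CPM in LNCaP, against 4.58, 4.51 and 4.86 CPM (0.76). In 22Rv1 it had 43.4, 50.6 and 45.4 CPM with Enza, against 48.2, 48.6 and 45.6 CPM with vehicle (-0.03). AXIN2 changed by -0.16, 0.12 and -0.03 and TCF7L2 by 0.02, 0.13 and 0.12 in 22Rv1, C4-2 and LNCaP. WNT5A and SOX9 were chosen by this comparison, so their rise in C4-2 and LNCaP cannot test a name as genes released by Enza. That name describes neither 22Rv1 nor the other 2 genes. Of all genes, 0.659%, 8.44% and 20.4% were called in these lines.

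The lines differed in the Enza effect by a test. Beside OSU, the WNT5A effect in 22Rv1 was 1.02 ± 0.14 below that in C4-2 (log2 difference -1.02, adjusted p = 1.24e-06) and differed by -0.67 ± 0.14 from LNCaP (adjusted p = 0.00101), while C4-2 and LNCaP differed by 0.36 ± 0.14 (95% interval 0.08 to 0.64, adjusted p = 0.150). The SOX9 effect in 22Rv1 differed by -0.99 ± 0.12 from C4-2 (adjusted p = 6.73e-08) and by -0.85 ± 0.12 from LNCaP (adjusted p = 8.83e-07), and C4-2 differed from LNCaP by 0.13 ± 0.12 (95% interval -0.11 to 0.37, adjusted p = 0.590). Beside E2, WNT5A responded more in C4-2 than in LNCaP (0.61 ± 0.14, adjusted p = 0.0112), a call lost without LNCaP E2 replicate 2 (0.53). Beside E2, SOX9 in 22Rv1 differed from C4-2 by -0.52 ± 0.12 (adjusted p = 0.0123), a call lost without the libraries that stood apart (-0.48) and on leaving out C4-2 E2 replicate 3 (-0.48), C4-2 E2+Enza replicate 1 (-0.48) or 22Rv1 E2 replicate 3 (-0.45) alone. Of all genes, 2.45%, 6.6% and 3.76% were called for 22Rv1 minus C4-2, 22Rv1 minus LNCaP and C4-2 minus LNCaP beside OSU, and 1.04%, 3.16% and 1.29% beside E2.

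E2 lowered WNT5A in C4-2 and LNCaP and raised SOX9 in 22Rv1. WNT5A in C4-2 had 4.06, 4.12 and 4.66 CPM with E2, against 7.76, 9.09 and 8.63 CPM with vehicle, with no overlap (-0.91 ± 0.09, 0.532-fold, adjusted p = 8.84e-08; rank 3 of 14027 from the lowest fold). In LNCaP it had 12.0, 14.1 and 11.7 CPM with E2, against 14.8, 15.2 and 16.1 CPM with vehicle (-0.28 ± 0.07, adjusted p = 0.00441). SOX9 in 22Rv1 had 80.2, 76.7 and 90.6 CPM with E2, against 48.2, 48.6 and 45.6 CPM with vehicle, all higher (0.79 ± 0.06, 1.73-fold, adjusted p = 3.60e-11, rank 109 of 14866). These comparisons share the vehicle libraries with the one that chose the genes, so low or high vehicle values enter both. With OSU in place of vehicle, WNT5A in C4-2 (-0.78 ± 0.09, adjusted p = 1.15e-06) and SOX9 in 22Rv1 (0.73 ± 0.06, adjusted p = 1.90e-10) kept their calls, and WNT5A in LNCaP did not (-0.18 ± 0.07, adjusted p = 0.0591). Of the 4 genes, 1 in 22Rv1, 1 in C4-2 and 1 in LNCaP were called for E2 against vehicle, where 27.7%, 5.82% and 24.9% of all genes were. SOX9 in LNCaP (0.27 ± 0.11, adjusted p = 0.0751) was called without E2 replicate 2 (0.40) and in 2 of 9 alternatives, and TCF7L2 in 22Rv1 (-0.17 ± 0.07, adjusted p = 0.0834) without vehicle replicate 3 (-0.23) and in 3 of 10 alternatives.

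The change of SOX9 with E2 differed between lines. In C4-2 it was not called against vehicle (-0.17 ± 0.07, adjusted p = 0.145). Set against OSU, its change was 0.73 ± 0.06 in 22Rv1, -0.26 ± 0.07 in C4-2 (adjusted p = 0.0261) and 0.34 ± 0.11 in LNCaP (adjusted p = 0.0271). The difference between lines was 0.98 ± 0.12 for 22Rv1 against C4-2 (adjusted p = 2.38e-08), 0.39 ± 0.12 for 22Rv1 against LNCaP (adjusted p = 0.0245) and -0.59 ± 0.12 for C4-2 against LNCaP (adjusted p = 0.000576), a test added after these values were seen. The difference of 0.39 was lost without LNCaP E2 replicate 2 (0.27), LNCaP OSU replicate 2 (0.31), 22Rv1 E2 replicate 3 (0.32) or 22Rv1 OSU replicate 3 (0.37). Of all genes, 25.1%, 10.5% and 8.03% were called in these pairs. The C4-2 call was lost in 4 of 10 alternatives and on leaving out any 1 of 5 libraries (E2 replicates 2 and 3 and OSU replicates 1, 2 and 3, -0.26 to -0.21), and that in LNCaP on leaving out E2 replicate 1 or 3 or OSU replicate 1 or 3 (0.21 to 0.34). AXIN2 was called in this comparison in LNCaP, with 8.37, 8.17 and 7.28 CPM with E2, against 10.45, 9.16 and 9.66 CPM with OSU (-0.28 ± 0.08, adjusted p = 0.0128), a call lost without E2 replicate 3 or OSU replicate 1 (-0.22 and -0.23). In all, 1 of 4 genes was called in 22Rv1, 2 in C4-2 and 2 in LNCaP, against 22%, 5.95% and 24.6% of all genes.

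With Enza present, E2 set against OSU gave lower WNT5A and SOX9 in C4-2 and LNCaP. WNT5A was 1.23 lower in C4-2 (log2 fold change -1.23 ± 0.09, 0.426-fold, the lowest fold of 14027 genes, adjusted p = 1.85e-10) and differed by -0.89 ± 0.07 in LNCaP (0.541-fold, adjusted p = 8.06e-11). SOX9 differed by -0.92 ± 0.07 in C4-2 (adjusted p = 3.47e-10) and by -0.35 ± 0.11 in LNCaP (adjusted p = 0.0202), and the LNCaP value was not called without E2+Enza replicate 1 or 2 or OSU+Enza replicate 2 (-0.31, -0.33 and -0.31). In 22Rv1, SOX9 was higher with E2+Enza than with OSU+Enza (0.53 ± 0.06, adjusted p = 1.66e-07), and WNT5A was not called (-0.15 ± 0.12, 95% interval -0.40 to 0.10). In the same line AXIN2 had 7.72, 7.49 and 7.04 CPM with E2+Enza, against 5.72, 6.04 and 5.27 CPM with OSU+Enza (0.36 ± 0.11, adjusted p = 0.0351), and TCF7L2 had 14.3, 14.5 and 14.3 CPM with E2+Enza, against 18.6, 16.3 and 18.8 CPM with OSU+Enza (-0.30 ± 0.07, adjusted p = 0.00693). Neither pair of groups overlapped, and the AXIN2 call was lost on leaving out any of 5 of the 6 libraries (0.31 to 0.39; it held without OSU+Enza replicate 2). In 22Rv1, C4-2 and LNCaP, 3, 2 and 2 of 4 genes were called, against 8.83%, 6.49% and 24.1% of all genes. Between lines, this effect on SOX9 differed by 1.45 ± 0.12 for 22Rv1 minus C4-2, 0.88 ± 0.12 for 22Rv1 minus LNCaP and -0.56 ± 0.12 for C4-2 minus LNCaP (adjusted p = 4.83e-13, 1.89e-07 and 0.00142, limma). This test, too, was added after the values were seen. In these pairs 5.37%, 11.7% and 4.61% of all genes were called.

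Adding E2 to Enza, a comparison that shares the Enza libraries with the one that chose the genes, changed WNT5A by -1.30 ± 0.09 in C4-2 and -1.03 ± 0.07 in LNCaP (adjusted p = 7.18e-11 and 3.17e-12) and SOX9 by 0.46 ± 0.06 in 22Rv1, -0.91 ± 0.07 in C4-2 and -0.48 ± 0.11 in LNCaP (adjusted p = 1.99e-06, 4.58e-10 and 0.00174). TCF7L2 was called in 22Rv1 (-0.28 ± 0.07, adjusted p = 0.0149; -0.25 and not called without Enza replicate 1). Just short of the threshold were AXIN2 in C4-2 (-0.30 ± 0.09, adjusted p = 0.0517; called without E2+Enza replicate 3, -0.36, and in 5 of 10 alternatives) and TCF7L2 in LNCaP (-0.21 ± 0.08, adjusted p = 0.0569; called without Enza replicate 1 or 3, -0.26 and -0.25, and in 2 of 9 alternatives). In 22Rv1, C4-2 and LNCaP, 2 of 4 genes each were called, against 7.94%, 7.38% and 23.1% of all genes. OSU changed none of the 4 genes past the threshold, either against vehicle or when added to Enza, in any line. Its intervals against vehicle ran from -0.24 to 0.05 in LNCaP, -0.32 to 0.05 in C4-2 and -0.14 to 0.37 in 22Rv1 for WNT5A, and from -0.29 to 0.17, -0.06 to 0.22 and -0.06 to 0.18 for SOX9. No unadjusted p of limma was under 0.05 for the 4 genes against vehicle; added to Enza, 1 was, for AXIN2 in C4-2 (-0.26 ± 0.09, adjusted p = 0.609). Of all genes, 0%, 0% and 0.014% were called for OSU against vehicle in 22Rv1, C4-2 and LNCaP, and 0.101%, 0% and 0.0982% for OSU added to Enza.

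**Figure D3:**
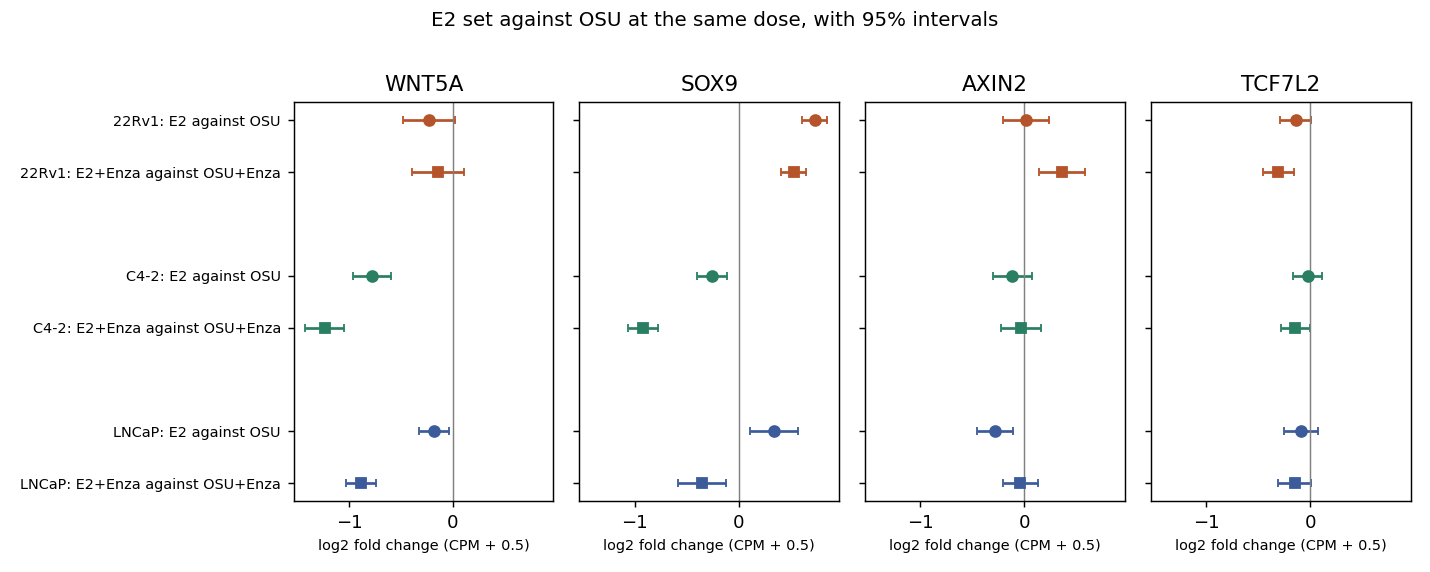
Log2 fold change and 95% interval of each gene for E2 against OSU (circles) and E2+Enza against OSU+Enza (squares), by line. WNT5A lies left of 0 in C4-2, at -0.78 and -1.23, and SOX9 lies right of 0 in 22Rv1, at 0.73 and 0.53, and left of 0 in C4-2, at -0.26 and -0.92.

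Other genes of the pathway were taken from lists of ligands, receptors, regulators, relay, planar polarity, TCF/LEF and target genes and the SOX family, without the 4 genes above. When Enza was added to OSU, 1 of 85 genes measured on these lists was called in 22Rv1, 15 of 82 in C4-2 and 34 of 79 in LNCaP, that is 1.18%, 18.3% and 43%, beside 0.942%, 7.32% and 30.8% of all genes tested. No called gene changed sign under 3 other scalings. When Enza was added to E2, 4 of 85, 8 of 82 and 21 of 79 were called, that is 4.71%, 9.76% and 26.6%, beside 1.2%, 3.46% and 13.5% of all genes. The counts per list that follow stand beside these shares of all genes, and a list share near them is no result about the list.

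Among the other WNT ligands (13 of 18 in the table), none was called as rising with WNT5A. When Enza was added to OSU, of 7 tested in C4-2 none was called higher, 2 fell and none had an unadjusted p under 0.05 in the upward direction. Of 6 tested in LNCaP none was called higher (1 with an unadjusted p under 0.05) and 2 fell. WNT4 (0.29 ± 0.13), WNT9A (0.19 ± 0.13), WNT3 (0.17 ± 0.18) and WNT10A (0.10 ± 0.12) had estimates above 0 in LNCaP, with SEs that leave room for a rise. The list's median log2 fold change was -0.04 in C4-2 and 0.14 in LNCaP, beside -0.01 and 0.01 over all genes. WNT7B had 37.3 ± 1.35 CPM with OSU+Enza in LNCaP, against 53.5 ± 1.96 CPM with OSU (-0.51 ± 0.04, adjusted p = 8.39e-11). WNT10B, another canonical ligand, had 17.6 ± 0.864 CPM with OSU+Enza, against 21.1 ± 1.56 CPM with OSU (-0.25 ± 0.07, adjusted p = 0.0104). In C4-2, WNT8B (-0.32 ± 0.10) and WNT7B (-0.14 ± 0.04) had an adjusted p of 0.0478, and both calls were lost at total read scaling (-0.29 and -0.11), that of WNT8B also with TMM (-0.32) and that of WNT7B with cyclic loess (-0.13).

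Genes of WNT secretion and reception changed in both directions. Of 16 tested in LNCaP, 4 rose (FZD3, FZD6, FZD7 and WLS, which carries WNT ligands out of the cell) and 2 fell when Enza was added to OSU, with a median of 0.04. FZD5, a Frizzled receptor, had 37.6 ± 3.02 CPM with OSU+Enza, against 50.3 ± 1.72 CPM with OSU (-0.42 ± 0.05, adjusted p = 1.42e-06), and ROR1, a receptor that WNT5A can bind, had 8.76 ± 0.728 CPM, against 11.2 ± 0.476 CPM (-0.34 ± 0.08, adjusted p = 0.00258). In C4-2, 2 of 16 rose, PTK7 (0.21 ± 0.06) and FZD7 (0.41 ± 0.12). With E2 as the partner, FZD5 fell in 22Rv1 (192 ± 6.94 CPM with E2+Enza, against 254 ± 10.6 CPM with E2, -0.40 ± 0.05, adjusted p = 2.99e-06, limma). It also fell in C4-2 (-0.22 ± 0.05) and LNCaP (-0.41 ± 0.05), and FZD3 rose in C4-2 (0.22 ± 0.05) and LNCaP (0.35 ± 0.05). ROR1 fell beside E2 in LNCaP too, with 13.4 ± 1.75 CPM with E2+Enza, against 20.4 ± 1.04 CPM with E2 (-0.60 ± 0.08, adjusted p = 5.98e-06, limma). LRP5 rose there (0.19 ± 0.03), and FZD1 fell in 22Rv1 (-0.22 ± 0.05).

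Genes that restrain WNT signalling at the membrane rose in part. RNF43, a ubiquitin ligase that removes Frizzled receptors and is also a canonical target, had 42.7 ± 1.07 CPM with OSU+Enza in C4-2, against 33.3 ± 1.53 CPM with OSU (0.35 ± 0.05, adjusted p = 9.31e-06), and 43.1 ± 0.822 CPM in LNCaP, against 29.1 ± 2.07 CPM (0.56 ± 0.06, adjusted p = 1.33e-08). Beside E2, RNF43 also rose in C4-2 (0.31 ± 0.05) and LNCaP (0.46 ± 0.06). KREMEN1, a receptor for the DKK inhibitors, rose beside OSU in C4-2 (0.23 ± 0.05) and LNCaP (0.33 ± 0.05), while KREMEN2 fell in LNCaP (-0.38 ± 0.09). The secreted inhibitor DKK1 fell in 22Rv1, with 3.35 ± 0.702 CPM with OSU+Enza, against 5.21 ± 0.661 CPM with OSU (-0.58 ± 0.13, adjusted p = 0.0168), the 1 gene of these lists called in that line.

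Of the canonical target list other than AXIN2, 2 of 12 rose and 1 fell in C4-2, and 4 of 11 rose and 2 fell in LNCaP, when Enza was added to OSU, beside 7.32% and 30.8% of all genes called in either direction. BAMBI, a TGF-beta pseudoreceptor, had 44.0 ± 1.70 CPM with OSU+Enza in C4-2, against 31.2 ± 2.06 CPM with OSU (0.49 ± 0.05, adjusted p = 2.97e-07), and 81.6 ± 1.67 CPM in LNCaP, against 51.3 ± 1.45 CPM (0.66 ± 0.05, adjusted p = 1.61e-11). The transcription factor MYC fell, by -0.16 ± 0.04 in C4-2 and -0.13 ± 0.03 in LNCaP, and beside E2 it rose in LNCaP (0.20 ± 0.03). TNFRSF19, a TNF receptor family member, rose in LNCaP beside OSU (0.61 ± 0.06) and fell beside E2 (-0.40 ± 0.06). Thus the target list held members on both sides of 0, with medians of 0.05 in C4-2 and -0.01 in LNCaP.

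In the nuclear part of the pathway, the corepressors TLE1 and TLE3 rose in C4-2 and LNCaP. TLE3, a Groucho-type corepressor that binds TCF/LEF factors, had 398 ± 15.2 CPM with OSU+Enza in C4-2, against 306 ± 14.9 CPM with OSU (0.38 ± 0.04, adjusted p = 1.14e-07), and rose by 0.36 ± 0.04 in LNCaP. TLE1, of the same family, rose by 0.36 ± 0.05 in C4-2 and 0.26 ± 0.05 in LNCaP. Both also rose beside E2 in both lines (TLE3 0.29 ± 0.04 and 0.35 ± 0.04, TLE1 0.27 ± 0.05 and 0.20 ± 0.05 in C4-2 and LNCaP). Beside OSU, TLE5 rose in LNCaP (0.20 ± 0.04). The corepressor CTBP1 fell there (-0.09 ± 0.03), a call lost at total read scaling and with cyclic loess. Beside E2, CTBP1 rose in LNCaP, with 211 ± 8.08 CPM with E2+Enza, against 184 ± 3.13 CPM with E2 (0.20 ± 0.03, adjusted p = 4.57e-05, limma). The coactivator PYGO1 fell in C4-2 (-0.23 ± 0.04 beside OSU), while BCL9L, another cofactor of the list, rose there (0.16 ± 0.04). In LNCaP, LEF1 (0.37 ± 0.11), BCL9 (0.11 ± 0.03), BCL9L (0.10 ± 0.03) and CTNNBIP1 (0.14 ± 0.05) also rose beside OSU. Of 13 TCF/LEF factors and cofactors, 3 rose and 1 fell in C4-2, and 7 rose and 1 fell in LNCaP, where 7.32% and 30.8% of all genes were called in either direction.

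The relay and planar polarity lists held small changes when Enza was added to OSU. Of 16 relay genes in C4-2, GSK3B, a kinase of the destruction complex, was the 1 that rose (0.14 ± 0.03). Of 15 in LNCaP, 3 rose and 2 fell, with AMER1, a regulator of that complex, lowest (-0.34 ± 0.05). The calls of CSNK1A1 (0.10 ± 0.03) and TNKS2, which rose, and of APC2, which fell, were lost at total read scaling. Beside E2, CSNK1A1 fell in LNCaP instead, with 310 ± 6.78 CPM with E2+Enza, against 382 ± 7.90 CPM with E2 (-0.30 ± 0.03, adjusted p = 2.97e-08, limma). In the planar polarity list, CELSR2 (0.27 ± 0.07) and CELSR1 (0.21 ± 0.05) were the 2 of 9 that rose in C4-2, and VANGL2 (0.47 ± 0.10) and DAAM1 (0.24 ± 0.04) were 2 of the 3 of 10 that rose in LNCaP. CELSR3 (-0.23 ± 0.09, a call lost at total read scaling) and SCRIB (-0.15 ± 0.05) fell there. In the rest of the SOX family, SOX4 rose in LNCaP (226 ± 4.08 CPM with OSU+Enza, against 179 ± 3.85 CPM with OSU, 0.33 ± 0.04, adjusted p = 1.66e-06), the 1 of 6 called there. Of 7 tested in C4-2 none was called by limma, with 1 unadjusted p under 0.05 in the downward direction.

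**Figure D4:**
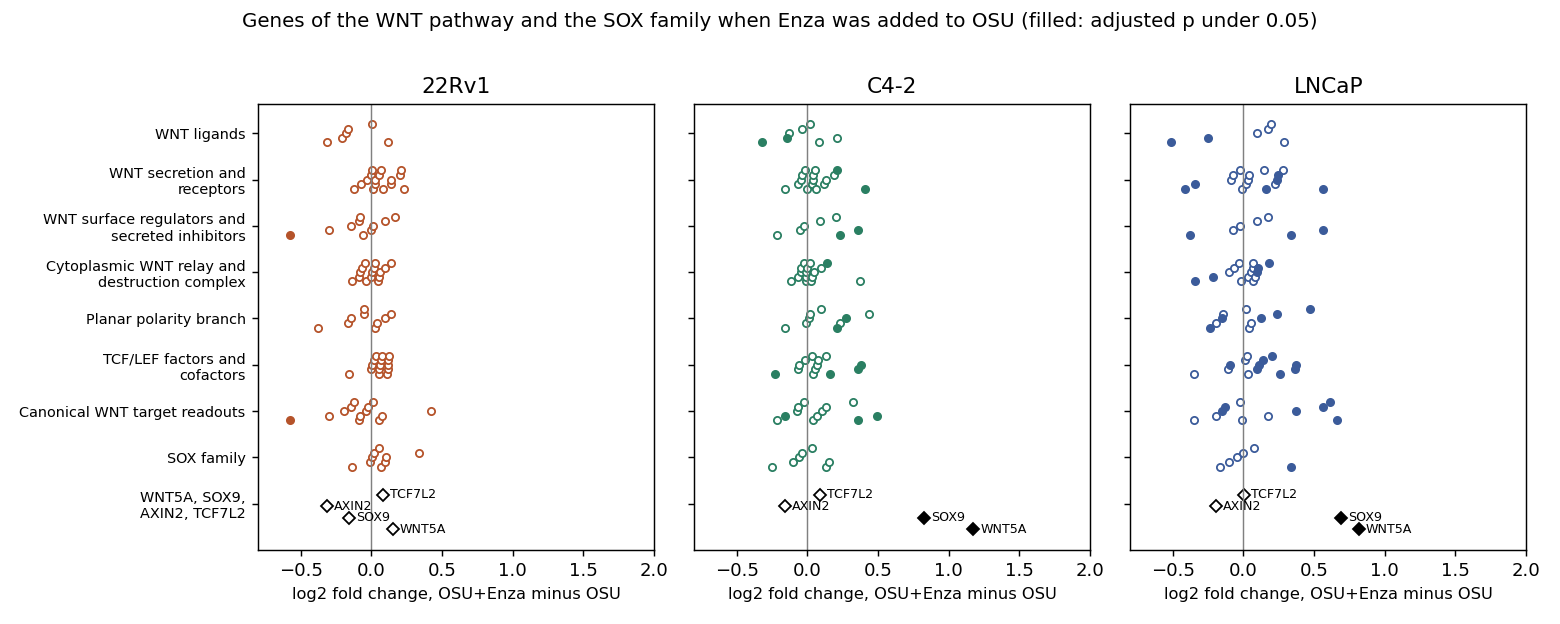
Log2 fold change of each tested gene when Enza was added to OSU, by list (rows) and line (panels); filled points have an adjusted p under 0.05, and diamonds are the 4 genes themselves. WNT5A at 1.17 and SOX9 at 0.82 lie right of every list gene in C4-2, as do WNT5A at 0.82 and SOX9 at 0.69 in LNCaP, where BAMBI at 0.66 is next. WNT5A and SOX9 were chosen for higher values after Enza and the list genes were not, so the choice in part sets this order.

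WNT5A and SOX9 followed similar courses over treatments in C4-2 and LNCaP and not in 22Rv1. Over the 6 group means of a line, Pearson's r of their log2 levels was 0.962 in C4-2 and 0.829 in LNCaP, and -0.702 in 22Rv1, as a description. These means include Enza and vehicle, the groups by which both genes were chosen, so the choice in part sets their likeness in C4-2 and LNCaP. The genes most like each member were sought over the 18 group means, each centred on its line. The search covered 1437 or 1438 genes that varied, with a mean of at least 5 CPM over all libraries. For WNT5A these were the homeobox gene HOXC13 (r = 0.952), the ETS factor ELF3 (0.938), the lipoprotein receptor family member LRP10 (0.936), P-cadherin CDH3 (0.929) and the chemokine receptor ACKR3 (0.928). For SOX9 they were TLE1 (0.877), which is also on the corepressor list, the secreted chaperone CLU (0.863), USP54 (0.860), SCARA3 (0.834) and the stress-induced gene DDIT4 (0.824). For TCF7L2 they were ZNF467 (0.912), MOB3C (0.892), CCN3 (0.852), PLXDC2 (0.851) and HOXB6 (0.847). AXIN2 had weaker likeness, to the tRNA gene TRI-AAT2-1 (0.756), whose near-identical copies make its counts uncertain, fibronectin FN1 (0.720), BANK1 (0.700), PRUNE2 (0.699) and PMAIP1 (0.667). Without centring by line, 0, 1, 2 and 0 of the 5 genes were the same for WNT5A, SOX9, AXIN2 and TCF7L2. CDH3 in LNCaP and ACKR3 in 22Rv1 did not pass the filter on low values, so their r with WNT5A includes group means near the floor.

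**Figure D5:**
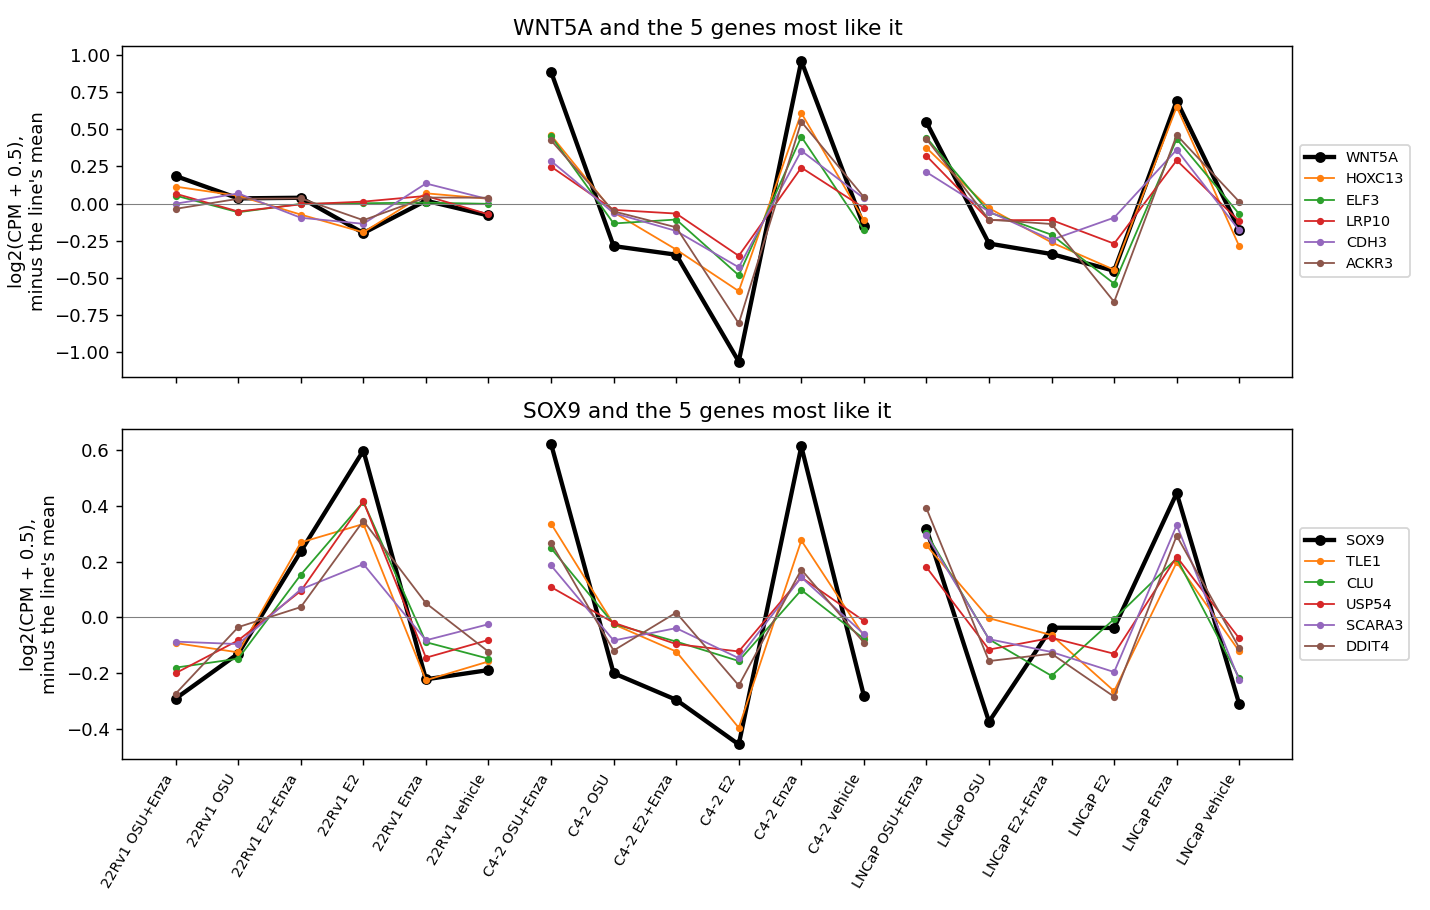
Group means of log2(CPM + 0.5), each minus its gene's mean in that line, for WNT5A and SOX9 (black) and the 5 genes most like each, over the 18 groups. WNT5A reaches its highest values with OSU+Enza and Enza in C4-2 and LNCaP and lies near 0 in 22Rv1, and SOX9 peaks with E2 in 22Rv1 and with OSU+Enza and Enza in the other 2 lines.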

How the data were processed

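RNA-seq of 54 libraries was deposited as a single table. Per the submitters' processing notes, the tools were featureCounts, edgeR, Trimmomatic and FastQC on hg38, with no versions stated there. The deposited values are a score: per the values themselves, log2 CPM (0.5 added to the reads) rescaled in every library to a column sum of 1000000, with 24.3 to 30.1% of values negative. Undoing this gave whole reads for 100% of values (tolerance 0.01), and CPM was computed with the authors' effective library sizes. Names of 18917 of 19225 IDs and coordinates are from RefSeq GRCh38.p14; promoter sequences are from RefSeq.

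Linear models in limma 3.58.1 under R 4.3.3, with a trended prior variance, were fitted to log2(CPM + 0.5), which understates the change of low genes. Genes needed 1 CPM or more in 3 or more libraries. Fits were made per line (18 libraries, 12 residual degrees of freedom) or over all 54 for differences between lines. Two-sided p-values were adjusted over all genes of a fit. No count test was used, since the deposited unit is not counts. Alternatives were pseudocounts of 0.25 and 1, no filter, TMM, total read and cyclic loess scaling, voom, 1 fit of all libraries, a replicate block and leaving out libraries. List genes named were the called ones with the smallest p; like genes were the 5 with the highest r. Some genes of the luminal marker list are not reported here. The genes, lists and tests were chosen with earlier results of these data known.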

Additional observations from a re-analysis of the deposited data

Results flagged for a closer look

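A test of the difference between lines called these effects (limma, fit of all 54 libraries, log2 differences). For the WNT5A response to Enza beside OSU, 22Rv1 minus C4-2 was -1.02 and 22Rv1 minus LNCaP -0.67, and beside E2, C4-2 minus LNCaP was 0.61. For SOX9, the response beside OSU gave -0.99 for 22Rv1 minus C4-2 and -0.85 for 22Rv1 minus LNCaP, and beside E2 -0.52 for 22Rv1 minus C4-2. For E2 against OSU, WNT5A gave 0.54 for 22Rv1 minus C4-2 and -0.59 for C4-2 minus LNCaP, and SOX9 gave 0.98, 0.39 and -0.59 for 22Rv1 minus C4-2, 22Rv1 minus LNCaP and C4-2 minus LNCaP. For E2+Enza against OSU+Enza, WNT5A gave 1.09 for 22Rv1 minus C4-2 and 0.74 for 22Rv1 minus LNCaP, SOX9 gave 1.45, 0.88 and -0.56 in the order used above, and AXIN2 gave 0.40 for 22Rv1 minus LNCaP (adjusted p = 0.0471). That AXIN2 call was lost with voom weights (0.42), with no filter (0.40) and on leaving out any single library of the 4 groups (0.33 to 0.43) except LNCaP E2+Enza replicate 3 and 22Rv1 OSU+Enza replicate 2, and the SOX9 value of 0.39 was lost with voom weights (0.38). Differences for E2 against OSU and for E2+Enza against OSU+Enza were tested after the values were seen. Summed luminal markers were lower in 22Rv1, and their part in these differences was not tested.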

How the results depend on the processing

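Adding Enza to OSU or to E2 gave the same direction and side of the threshold for WNT5A and SOX9 wherever they were called, in every alternative and with each library left out, and so did the differences between both Enza effects. Of the comparisons of E2 with OSU, WNT5A in LNCaP passed at total read scaling (-0.24). SOX9 in LNCaP was lost without the filter (0.34), at total read scaling (0.28) and with voom (0.35), and SOX9 in C4-2 at total read scaling (-0.22), with cyclic loess (-0.23), in 1 fit of all libraries (-0.26) and without the libraries that stood apart (-0.21). AXIN2 in 22Rv1 for E2+Enza against OSU+Enza was lost without the filter (0.36), at total read scaling (0.35) and with voom (0.38). For E2+Enza against Enza, AXIN2 in C4-2 passed with TMM, total read scaling, cyclic loess, voom and 1 fit (-0.32 to -0.29) and TCF7L2 in LNCaP at total read scaling and in 1 fit (-0.23 and -0.21). The causes were not tested. Leaving out 1 library gave -0.26 to -0.10 for WNT5A, 0.21 to 0.46 for SOX9 and -0.32 to -0.22 for AXIN2 in LNCaP and -0.32 to -0.21 for SOX9 in C4-2 (E2 against OSU), and -0.43 to -0.31 for SOX9 in LNCaP and 0.31 to 0.40 for AXIN2 in 22Rv1 (E2+Enza against OSU+Enza). Deviations of libraries of the same number were compared, and 0 of 27 comparisons had every correlation over 0.1 (range -0.51 to 0.31). Some had 2 of 3 over 0.1, such as E2+Enza against OSU+Enza in C4-2 (0.16, 0.03 and 0.31). The main fits did not pair libraries by number, and whether some groups shared a batch was not tested. With a replicate block WNT5A gave 1.17 in C4-2 and 0.82 in LNCaP when Enza was added to OSU, and no test of the 4 genes changed side. No block could be fitted to levels between lines. Counts of called genes moved by over 1.5 times as follows. For Enza added to OSU in 22Rv1, 140 genes were called, and 265, 221, 317 and 79 with total read scaling, cyclic loess, 1 fit and without the libraries that stood apart; for Enza added to E2 in 22Rv1, 178, and 280 in 1 fit; for Enza against vehicle, 98 in 22Rv1 and 189 in 1 fit, and 1184 in C4-2 and 751 without those libraries. Without them, C4-2 gave 396 for 817 (E2 against vehicle) and 514 for 834 (E2 against OSU). For the difference between both Enza effects in 22Rv1, 18 were called and 69 in 1 fit. For the E2 and OSU difference, 22Rv1 minus C4-2, 4019 were called, and 2530, 2521 and 2306 with total read scaling, cyclic loess and without those libraries, and for C4-2 minus LNCaP 1287 and 799 without them. The comparisons of OSU with vehicle and of OSU+Enza with Enza called at most 15 genes, and at most 86 in any of these alternatives. Leaving out 1 library moved some all-gene counts as far: to 65 to 91 for Enza added to OSU in 22Rv1 (without OSU replicate 1, 2 or 3 or OSU+Enza replicate 2), to 55 to 410 for Enza against vehicle in 22Rv1 (410 without Enza replicate 3), to 609 to 770 for the same in C4-2 (vehicle replicates 1 and 2, Enza replicates 2 and 3), to 1866 to 2111 from 3267 for E2 against OSU in 22Rv1 and to 2193 to 2598 from 4118 for E2 against vehicle there. Reads of 146 to 366 for SOX9 in LNCaP and 3 libraries per group limit the precision.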
